A study of Saccharomyces cerevisiae with 7 samples.

Results

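The genes described here are 39 budding yeast genes that act in meiosis and in the middle stage of sporulation and form a list of names. No measured value enters the rule, but the list was drawn up with earlier results of these data known. Of the 39 genes, 38 had a named probe set on the array and were tested among 5449 genes in all. HED1 was not analysed here. RNA was measured in 7 samples of Saccharomyces cerevisiae, one per Affymetrix array: 3 wild-type samples, 2 samples of an ssn6 deletion and 2 of a tup1 deletion. All 7 are of the genetic background BY4742, a haploid laboratory strain of the alpha mating type, so none of the samples is the diploid cell that sporulates. The cultures, of 200 mL each, held YEP, a rich medium, with 2% glucose, and were taken at an OD600 of 0.8. The labels do not say how the genes were deleted, or whether replicates came from separate cultures, so the p-values cover only the spread from sample to sample, possibly a technical one. The design text mentions duplicates, but 3 samples carry the wild-type label, and each of them was used.

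Ssn6 (gene CYC8) and Tup1 form a corepressor that DNA-binding proteins bring to promoters. Diploid yeast enters meiosis when nitrogen and a fermentable carbon source are lacking. The transcription activator Ime1 then converts Ume6, which represses early meiotic genes during growth, into a platform for their activation, and the kinase Ime2 helps to drive the programme forward. Early genes serve recombination and pairing of chromosomes. The activator Ndt80 later turns on the middle genes, which serve the meiotic divisions and the spore membrane, and whose promoters are held by the repressor Sum1 in growing cells.

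Each deletion was set against the same wild-type arrays, and the deletions were set against each other. Levels are the deposited log2 expression values, differences are log2 differences of group means with their standard error (SE), and a gene was called, or said to rise or fall, at an adjusted p under 0.05 in limma's moderated test over all 5449 genes. The background floor of an array was the 95th percentile of 1746 probe sets for fission yeast genes. It lay between 5.50 and 5.67, while the median log2 level of all genes lay between 10.95 and 11.06 and that of the 38 genes between 7.81 and 8.18. Between 1 and 5 of the 38 genes fell under the floor on an array, and HOP2 did so on all 7.

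The deleted genes matched the labels. The log2 level of CYC8 was 11.22 to 11.32 in wild type and 5.62 and 6.07 in the ssn6 deletion, and that of TUP1 was 11.56 to 12.50 in wild type and 4.69 and 5.07 in the tup1 deletion. In wild type the 4 alpha mating-type markers had mean log2 levels of 12.53 to 12.80, with none under the floor on any array. Of the 4 genes that BY4742 carries as mutant markers, LYS2 and URA3 were under the floor on all 7 arrays, and LEU2 read 5.47 to 5.80, near the floor and under it on 1 array. HIS3 read 11.82 to 12.57, and whether its probes lie outside the mutated part was not tested. The mating-type markers moved with the deletions. All 6 markers of a cells rose in both deletions, from means of 7.70 to 8.12 in wild type to 11.65 and 11.65 without Ssn6 and to 10.47 and 10.48 without Tup1. Of the alpha markers, 2 of 4 fell in the ssn6 deletion (means of 11.73 and 11.80) and 4 of 4 in the tup1 deletion (means of 9.03 and 9.36). The 7 markers of haploid cells kept means of 10.69 to 10.85 on all 7 arrays, with 1 rise in each deletion and 1 fall in the tup1 deletion. Their part in the results for the meiotic genes was not tested. In whole cultures a change in a few cells and a change per cell cannot be told apart.

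Against wild type, 5 of the 38 genes rose and 4 fell in the ssn6 deletion, while 29 were not called. IME1, RIM4, HOP1, SPO22 and REC8 rose, and ZIP1, MSH4, MND1 and MAM1 fell. Of all genes, 9.18% rose, 10.3% fell and 19.4% were called in either direction, against 23.7% of the 38. The median difference of the 38 genes was -0.03, beside -0.14 for all genes. In the tup1 deletion 8 of the 38 genes rose and 1 fell, and 29 were not called. IME1, RIM4, HOP1, SPO22, REC8, MEK1, DMC1 and SPR3 rose, and NDJ1 fell. Of all genes, 10.4% rose, 12.6% fell and 23.0% were called, against 23.7% of the 38. The median difference was 0.14, beside -0.08 for all genes. The share called in either direction was thus near that of all genes for both deletions. Rises made up 13.2% of the 38 genes without Ssn6 and 21.1% without Tup1. Quantile normalization of the table called 5 rises and 7 falls without Ssn6, and 7 rises and 2 falls without Tup1. Of all genes it called 19.0% and 23.5%. With tup1 replicate 1 left out, fewer genes were called without Tup1, among the 38 genes and among all genes.

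**Figure D1:**
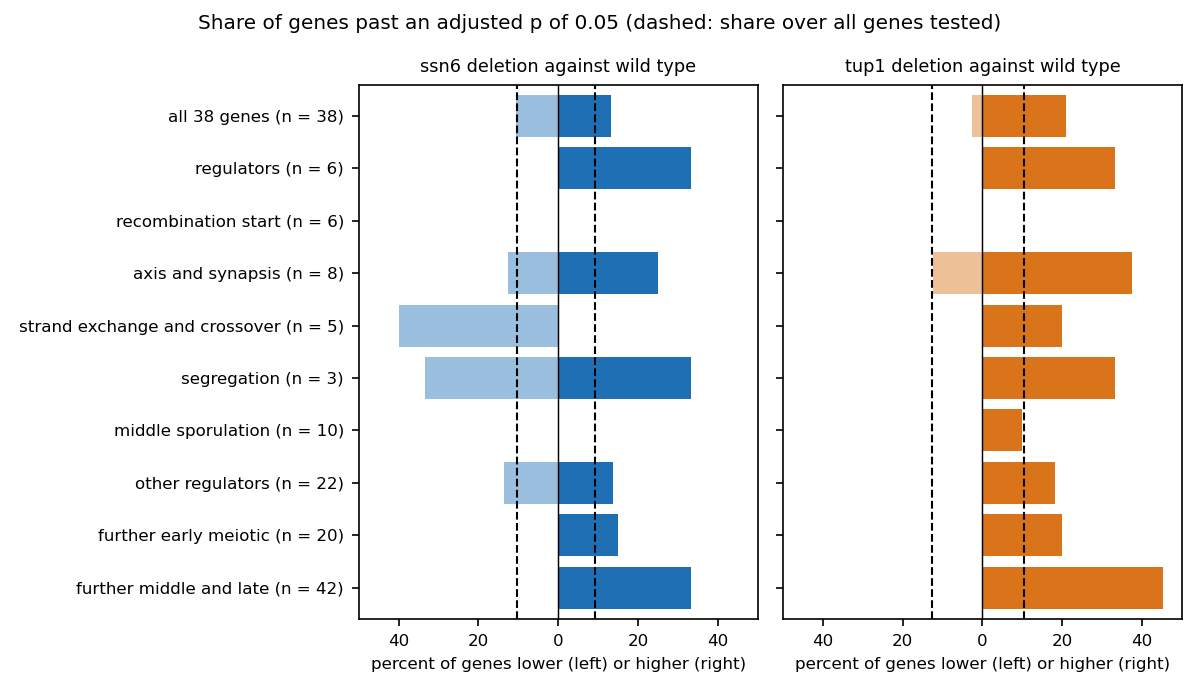
Percent of genes called lower (pale bars, to the left) or higher (dark bars, to the right) against wild type at an adjusted p under 0.05, in the ssn6 (left panel) and tup1 deletion (right panel), for the 38 genes, their role groups and 3 further lists. Dashed lines mark the shares over all 5449 genes, 9.18% higher and 10.3% lower without Ssn6 and 10.4% and 12.6% without Tup1, beside 13.2% and 10.5%, and 21.1% and 2.63%, of the 38 genes.

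The arrays of the ssn6 deletion lay wholly above those of wild type for 10 of the 38 genes (26.3%) and wholly below for 10 (26.3%), where all genes gave 20.3% and 39.1%. For the tup1 deletion the groups stood apart in 15 genes (39.5%) above and 5 genes (13.2%) below, where all genes gave 22.0% and 30.0%. The 38 genes were measured with larger errors than genes at large. The median SE of a difference from wild type was 0.27 for the 38 genes and 0.18 for all genes, and single genes ranged from 0.13 to 0.49.

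**Figure D2:**
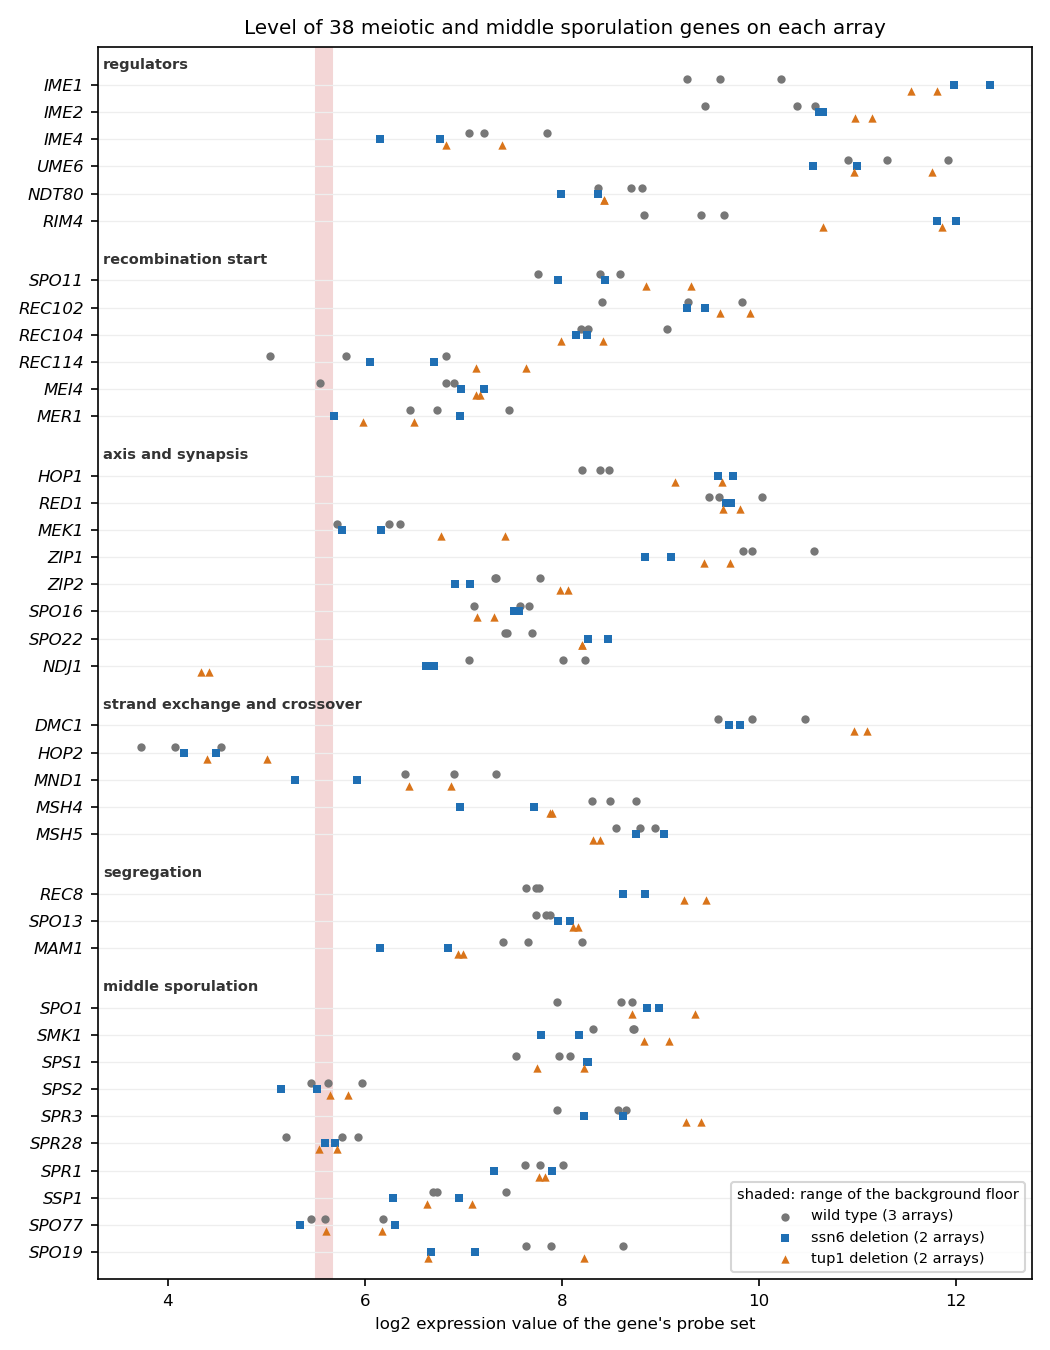
Log2 expression value of each of the 38 genes on the 7 arrays, 1 point per array, with grey circles for wild type, blue squares for the ssn6 deletion, orange triangles for the tup1 deletion and the range of the background floor (5.50 to 5.67) shaded. All deletion points of IME1, RIM4, HOP1 and REC8 lie above the 3 wild-type points, and the NDJ1 points of the tup1 deletion and all HOP2 points lie under the floor.

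Among the 6 regulators, the master activator IME1 (YJR094C) and the RNA-binding translational repressor RIM4 (YHL024W) rose in both deletions, and no other regulator was called. That is 33.3% called in each deletion, beside 19.4% and 23.0% of all genes. Role groups of 3 to 10 genes are too small for their shares to be read as results about a role. The log2 level of IME1 was 9.27, 10.22 and 9.60 on wild-type replicates 1, 2 and 3, 11.98 and 12.34 in the ssn6 deletion, and 11.80 and 11.54 in the tup1 deletion. All 4 deletion arrays lay above all 3 wild-type arrays. IME1 rose by 2.46 ± 0.28 (5.51-fold, adjusted p = 0.00151) without Ssn6 and by 1.97 ± 0.28 (3.93-fold, adjusted p = 0.00392) without Tup1. Both calls held in all 16 alternatives run, with adjusted p up to 0.0195 and 0.0479.

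The log2 level of RIM4 was 9.41, 9.64 and 8.83 in wild type, 11.81 and 12.00 in the ssn6 deletion, and 11.86 and 10.65 in the tup1 deletion. The deletion arrays again all lay above wild type, and the tup1 replicates differed more than the ssn6 ones. RIM4 rose by 2.61 ± 0.38 (6.10-fold, adjusted p = 0.0041) without Ssn6 and by 1.96 ± 0.38 (3.90-fold, adjusted p = 0.0119) without Tup1. Without tup1 replicate 1 the second difference was 1.36 ± 0.33 and was not called (adjusted p = 0.0691).

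The other regulators were not called in either deletion. UME6 (YDR207C), the repressor that Ime1 converts, had wild-type log2 levels of 11.30, 11.92 and 10.90, beside 10.99 and 10.55 without Ssn6 and 11.76 and 10.96 without Tup1. The groups overlapped, with differences of -0.60 ± 0.35 (adjusted p = 0.255) and -0.02 ± 0.35 (adjusted p = 0.98). IME2 (YJL106W), the meiotic kinase that Ime1 turns on, had wild-type log2 levels of 10.39, 10.57 and 9.45, beside 10.61 and 10.65 without Ssn6 and 10.98 and 11.15 without Tup1. Both deletions lay above wild type on every array, but the third wild-type array was low, and the differences were 0.49 ± 0.32 (adjusted p = 0.297) and 0.93 ± 0.32 (adjusted p = 0.0747). The tup1 difference was called without wild-type replicate 2 (1.14 ± 0.30, adjusted p = 0.0402) or replicate 3 (0.58 ± 0.14, adjusted p = 0.0422). NDT80 (YHR124W), the activator of middle genes, had wild-type log2 levels of 8.36, 8.81 and 8.70, beside 8.36 and 7.99 without Ssn6 and 8.43 and 8.42 without Tup1. Its differences were -0.45 ± 0.18 (adjusted p = 0.129) and -0.20 ± 0.18 (adjusted p = 0.473), and neither was called. IME4, a methyltransferase that acts on messenger RNA, differed by -0.91 ± 0.31 (adjusted p = 0.0781) and -0.26 ± 0.31 (adjusted p = 0.569).

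The 6 genes of the recombination start were not called in either deletion, where 19.4% and 23.0% of all genes were. They were SPO11, whose product cuts DNA to begin recombination, its partners REC102, REC104, REC114 and MEI4, and MER1, which promotes splicing of meiotic transcripts. Their differences ran from -0.56 to 0.68 without Ssn6. Without Tup1 they ran from -0.65 to 1.49. REC114 read 5.81, 5.04 and 6.82 in wild type, 6.71 and 6.05 without Ssn6 and 7.13 and 7.63 without Tup1, all as log2 levels, so wild type itself spread widely. Its tup1 difference was 1.49 ± 0.49 (adjusted p = 0.0668), and without wild-type replicate 3 it was 1.96 ± 0.35 (adjusted p = 0.0176). SPO11 read 8.39, 8.59 and 7.76 in wild type, 8.43 and 7.96 without Ssn6 and 9.31 and 8.85 without Tup1, with a tup1 difference of 0.83 ± 0.29 (adjusted p = 0.0779). MEI4, low on wild-type replicate 2 at 5.54, differed by 0.68 ± 0.39 (adjusted p = 0.252) and 0.73 ± 0.39 (adjusted p = 0.216).

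Of 8 genes of the chromosome axis and of synapsis, the pairing of chromosomes along their length, 2 rose and 1 fell without Ssn6, and 3 rose and 1 fell without Tup1. That is 37.5% and 50% called, beside 19.4% and 23.0% of all genes. HOP1 (YIL072W), a structural protein of the axis, had wild-type log2 levels of 8.20, 8.48 and 8.38, beside 9.73 and 9.58 without Ssn6 and 9.62 and 9.15 without Tup1. All deletion arrays lay above wild type. HOP1 rose by 1.31 ± 0.18 (2.47-fold, adjusted p = 0.00345) and by 1.03 ± 0.18 (2.04-fold, adjusted p = 0.00845). The tup1 call was lost without tup1 replicate 1 (0.79 ± 0.17, adjusted p = 0.0537).

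SPO22 (YIL073C), also called ZIP4 and needed to start synapsis, lies next to HOP1 on the other strand. Its log2 level was 7.44, 7.42 and 7.69 in wild type, 8.46 and 8.26 without Ssn6 and 8.20 and 8.20 without Tup1, with no overlap. It rose by 0.85 ± 0.15 (1.80-fold, adjusted p = 0.00884) and by 0.68 ± 0.15 (1.60-fold, adjusted p = 0.0173). The ssn6 call was lost without ssn6 replicate 1 (adjusted p = 0.114) or 2 (adjusted p = 0.0613), and the tup1 call without wild-type replicate 1 (adjusted p = 0.0513), tup1 replicate 1 (adjusted p = 0.0886) or tup1 replicate 2 (adjusted p = 0.0504). The genes on the outer sides of the pair did not rise. PCI8, next to HOP1, fell by 0.74 ± 0.20 without Ssn6 (adjusted p = 0.0414) and differed by 0.19 ± 0.20 without Tup1 (adjusted p = 0.529). SER33, next to SPO22, differed by -0.37 ± 0.15 without Ssn6 (adjusted p = 0.118) and fell by 0.76 ± 0.15 without Tup1 (adjusted p = 0.0123).

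MEK1 (YOR351C), the kinase that steers meiotic repair to the homologous chromosome, had wild-type log2 levels of 5.72, 6.24 and 6.35, beside 6.16 and 5.76 without Ssn6 and 7.42 and 6.78 without Tup1. The ssn6 arrays overlapped with wild type and the tup1 arrays lay above it. MEK1 rose by 0.99 ± 0.27 (1.99-fold, adjusted p = 0.0394) without Tup1 and differed by -0.14 ± 0.27 (adjusted p = 0.736) without Ssn6. Its wild-type and ssn6 levels lay close to the floor, and CYC8 read 5.62 and 6.07 where it was deleted. The size of the MEK1 rise is therefore uncertain. The tup1 call was lost in 11 of 16 alternatives, the most of the 9. It was lost without wild-type replicate 1 (adjusted p = 0.0859), 2 (adjusted p = 0.0534) or 3 (adjusted p = 0.0511), without either ssn6 array (adjusted p = 0.062) and without tup1 replicate 1 (0.67 ± 0.30, adjusted p = 0.247).

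ZIP1 (YDR285W), the protein that bridges paired chromosomes, had wild-type log2 levels of 9.83, 10.56 and 9.93, beside 9.11 and 8.84 without Ssn6 and 9.71 and 9.45 without Tup1. Both deletions lay below wild type on every array. ZIP1 fell by 1.13 ± 0.24 without Ssn6 (2.19-fold lower, adjusted p = 0.0184), a call lost without ssn6 replicate 1 (adjusted p = 0.0842) or 2 (adjusted p = 0.161). Without Tup1 it differed by -0.53 ± 0.24 (adjusted p = 0.148). RED1, another axis protein, differed by -0.02 and 0.01 (adjusted p = 0.948 and 0.977), and SPO16, which acts with the synapsis proteins, by 0.09 and -0.23 (adjusted p = 0.775 and 0.425).

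NDJ1 (YOL104C), which ties chromosome ends to the nuclear envelope in meiosis, had wild-type log2 levels of 8.24, 7.06 and 8.02, beside 6.71 and 6.62 without Ssn6 and 4.34 and 4.42 without Tup1. The 3 genotypes did not overlap, and both tup1 arrays were under the background floor. The level without Tup1 is therefore only a bound: NDJ1 was lower than in wild type by at least 4.67-fold, with measured means of 4.38 and 7.77 (adjusted p = 0.000607), and this call held in all 16 alternatives. Without Ssn6 NDJ1 differed by -1.11 ± 0.32 (adjusted p = 0.0531), and by -1.46 ± 0.13 without wild-type replicate 2 (adjusted p = 0.00132). Its neighbour WSC3, a sensor of the cell wall, differed by 0.58 ± 0.32 and 0.86 ± 0.32 (adjusted p = 0.232 and 0.0949).

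Of 5 measured genes of strand exchange and crossover formation, 2 fell without Ssn6 and 1 rose without Tup1. That is 40% and 20% called, beside 19.4% and 23.0% of all genes. DMC1 (YER179W), the meiotic recombinase, had wild-type log2 levels of 9.93, 10.46 and 9.59, beside 9.80 and 9.69 without Ssn6 and 11.09 and 10.96 without Tup1. The ssn6 arrays lay within the wild-type range and the tup1 arrays above it. DMC1 rose by 1.03 ± 0.25 without Tup1 (2.05-fold, adjusted p = 0.0252) and differed by -0.25 ± 0.25 without Ssn6 (adjusted p = 0.504). The call was lost without wild-type replicate 1 (adjusted p = 0.0675), either ssn6 array (adjusted p = 0.0509), tup1 replicate 1 (adjusted p = 0.154) or tup1 replicate 2 (adjusted p = 0.0707).

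MND1 (YGL183C), which with Hop2 helps Dmc1 pair homologous strands, had wild-type log2 levels of 6.91, 6.41 and 7.33, beside 5.92 and 5.29 without Ssn6 and 6.87 and 6.45 without Tup1. Both ssn6 arrays lay below wild type, and 1 of them was under the floor. MND1 fell by 1.28 ± 0.31 (2.43-fold lower, adjusted p = 0.0296). The call was lost without wild-type replicate 1 (adjusted p = 0.0704) or 3 (adjusted p = 0.0609) and without ssn6 replicate 1 (adjusted p = 0.0648) or 2 (adjusted p = 0.229). Without Tup1 MND1 differed by -0.22 ± 0.31 (adjusted p = 0.636). HOP2 itself read 3.73 to 5.01 over the 7 arrays, below background, so no fold is given.

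MSH4 (YFL003C), which with Msh5 stabilises crossover intermediates, had wild-type log2 levels of 8.76, 8.49 and 8.30, beside 7.72 and 6.96 without Ssn6 and 7.90 and 7.88 without Tup1. All deletion arrays lay below wild type, and the ssn6 replicates were far apart. MSH4 fell by 1.17 ± 0.24 without Ssn6 (2.25-fold lower, adjusted p = 0.0172), a call lost without ssn6 replicate 2 (-0.80 ± 0.24, adjusted p = 0.135). Without Tup1 it differed by -0.63 ± 0.24 (adjusted p = 0.102). Its partner MSH5 differed by 0.13 ± 0.17 (adjusted p = 0.599) and -0.41 ± 0.17 (adjusted p = 0.112). VTC2, the neighbour of MSH4, fell by 0.54 ± 0.15 without Ssn6 (adjusted p = 0.047) and differed by -0.37 ± 0.15 without Tup1 (adjusted p = 0.113).

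Of the 3 segregation genes, REC8 rose in both deletions and MAM1 fell in one. That is 66.7% called without Ssn6 and 33.3% without Tup1, beside 19.4% and 23.0% of all genes. REC8 (YPR007C), the meiotic subunit of the cohesin ring that holds sister chromatids together, had wild-type log2 levels of 7.77, 7.73 and 7.64, beside 8.84 and 8.62 without Ssn6 and 9.46 and 9.24 without Tup1. The 3 genotypes did not overlap. REC8 rose by 1.02 ± 0.14 without Ssn6 (2.02-fold, adjusted p = 0.00369), a call lost without ssn6 replicate 1 (0.90 ± 0.21, adjusted p = 0.0614). It rose by 1.64 ± 0.14 without Tup1 (3.11-fold, adjusted p = 0.000378), a call that held in all 16 alternatives. Its neighbour ICL2, which encodes a mitochondrial lyase, rose too, by 1.19 ± 0.32 (adjusted p = 0.0394) and 1.27 ± 0.32 (adjusted p = 0.0292), while HAA1 on the other side differed by 0.01 ± 0.16 and 0.48 ± 0.16 (adjusted p = 0.956 and 0.0714).

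MAM1 (YER106W), a subunit of the monopolin complex that orients sister chromatids to one pole, had wild-type log2 levels of 7.40, 7.66 and 8.21, beside 6.85 and 6.15 without Ssn6 and 6.95 and 6.99 without Tup1. All deletion arrays lay below wild type. MAM1 fell by 1.25 ± 0.29 without Ssn6 (2.39-fold lower, adjusted p = 0.0242) and differed by -0.78 ± 0.29 without Tup1 (adjusted p = 0.0889). The ssn6 call was lost without ssn6 replicate 2 (-0.91 ± 0.33, adjusted p = 0.197). Its neighbour GLE2, a gene of the nuclear pore, fell by 0.49 ± 0.13 (adjusted p = 0.0381) and 0.57 ± 0.13 (adjusted p = 0.0217). NUP157 on the other side differed by -0.37 ± 0.15 and -0.26 ± 0.15 (adjusted p = 0.119 and 0.244). SPO13, a regulator of the first meiotic division, differed by 0.20 ± 0.13 (adjusted p = 0.279) and 0.32 ± 0.13 (adjusted p = 0.106).

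The ssn6 arrays differed from each other in one direction over these genes. Replicate 1 read higher than replicate 2 for 34 of the 38 genes (89.5%), with a median difference of 0.28, where all genes gave 59.1% and 0.03. Among the 262 genes with a mean log2 level under 8 the share was 79.4% and the median 0.29. For the tup1 arrays replicate 1 read higher for 20 of the 38 (52.6%). With either ssn6 array left out, fewer genes were called without Ssn6, among the 38 genes and among all genes. The loss of calls in these fits was thus not particular to the 38 genes. ZIP1, MSH4, MND1 and MAM1 kept negative differences from wild type in both fits. The fits without 1 ssn6 array assume that the lone array varies like the other genotypes. On wild-type replicate 2 the actin probe sets differed by 2.06 between the 3′ and 5′ ends of the transcript, against 0.30 to 0.61 on the other 6 arrays, and with it left out the calls of HOP1, IME1, RIM4 and REC8 held in both deletions, as did the falls of ZIP1, MSH4, MND1 and MAM1 without Ssn6. The mean log2 level of 16 ribosomal RNA control probe sets was 11.24, 8.46 and 12.49 in wild type, 8.72 and 7.57 in the ssn6 deletion and 6.85 and 9.39 in the tup1 deletion, so 2 wild-type arrays lay above all 4 deletion arrays and replicate 2 among them. The part of this difference in the results, and that of the difference between the ssn6 arrays in those falls, was not tested.

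Of the 10 middle sporulation genes, none was called without Ssn6 and 1 rose without Tup1. That is 0% and 10% called, beside 19.4% and 23.0% of all genes. SPR3 (YGR059W), a septin made in sporulation, had wild-type log2 levels of 7.95, 8.57 and 8.65, beside 8.62 and 8.22 without Ssn6 and 9.26 and 9.41 without Tup1. The ssn6 arrays lay within the wild-type range and the tup1 arrays above it. SPR3 rose by 0.95 ± 0.24 without Tup1 (1.93-fold, adjusted p = 0.0313) and differed by 0.03 ± 0.24 without Ssn6 (adjusted p = 0.933). The call was lost without either ssn6 array (adjusted p = 0.0505), tup1 replicate 1 (adjusted p = 0.128) or tup1 replicate 2 (adjusted p = 0.118).

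The differences of the 10 middle genes ran from -1.16 to 0.50 without Ssn6, with a median of -0.09, and had a median of 0.09 without Tup1. At the low end was SPO19, a protein of the spore membrane, with wild-type log2 levels of 7.89, 8.62 and 7.64, beside 7.12 and 6.67 without Ssn6 and 6.64 and 8.23 without Tup1. Its differences were -1.16 ± 0.48 (adjusted p = 0.131) and -0.62 ± 0.48 (adjusted p = 0.384), and the tup1 replicates lay on both sides of the ssn6 ones. SMK1, the mitogen-activated kinase of spore wall formation, differed by -0.60 ± 0.20 (adjusted p = 0.0714) and 0.37 ± 0.20 (adjusted p = 0.21). The ssn6 difference of SMK1 was called without wild-type replicate 3 (-0.74 ± 0.18, adjusted p = 0.0435). SPS1, a kinase needed for spore walls, differed by 0.40 and 0.13 (adjusted p = 0.222 and 0.697). SPO1, which resembles phospholipases, differed by 0.50 and 0.61 (adjusted p = 0.235 and 0.154). SPS2 next to SPS1, the septin SPR28 and SPO77, which acts in closing the spore membrane, each had arrays near or under the floor, with log2 levels of 5.15 to 5.97, 5.20 to 5.93 and 5.35 to 6.31. SPR1, an enzyme that cuts glucans, read 7.32 to 8.01, and SSP1, of the coat at the edge of the spore membrane, read 6.28 to 7.43, with groups that overlapped.

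**Figure D3:**
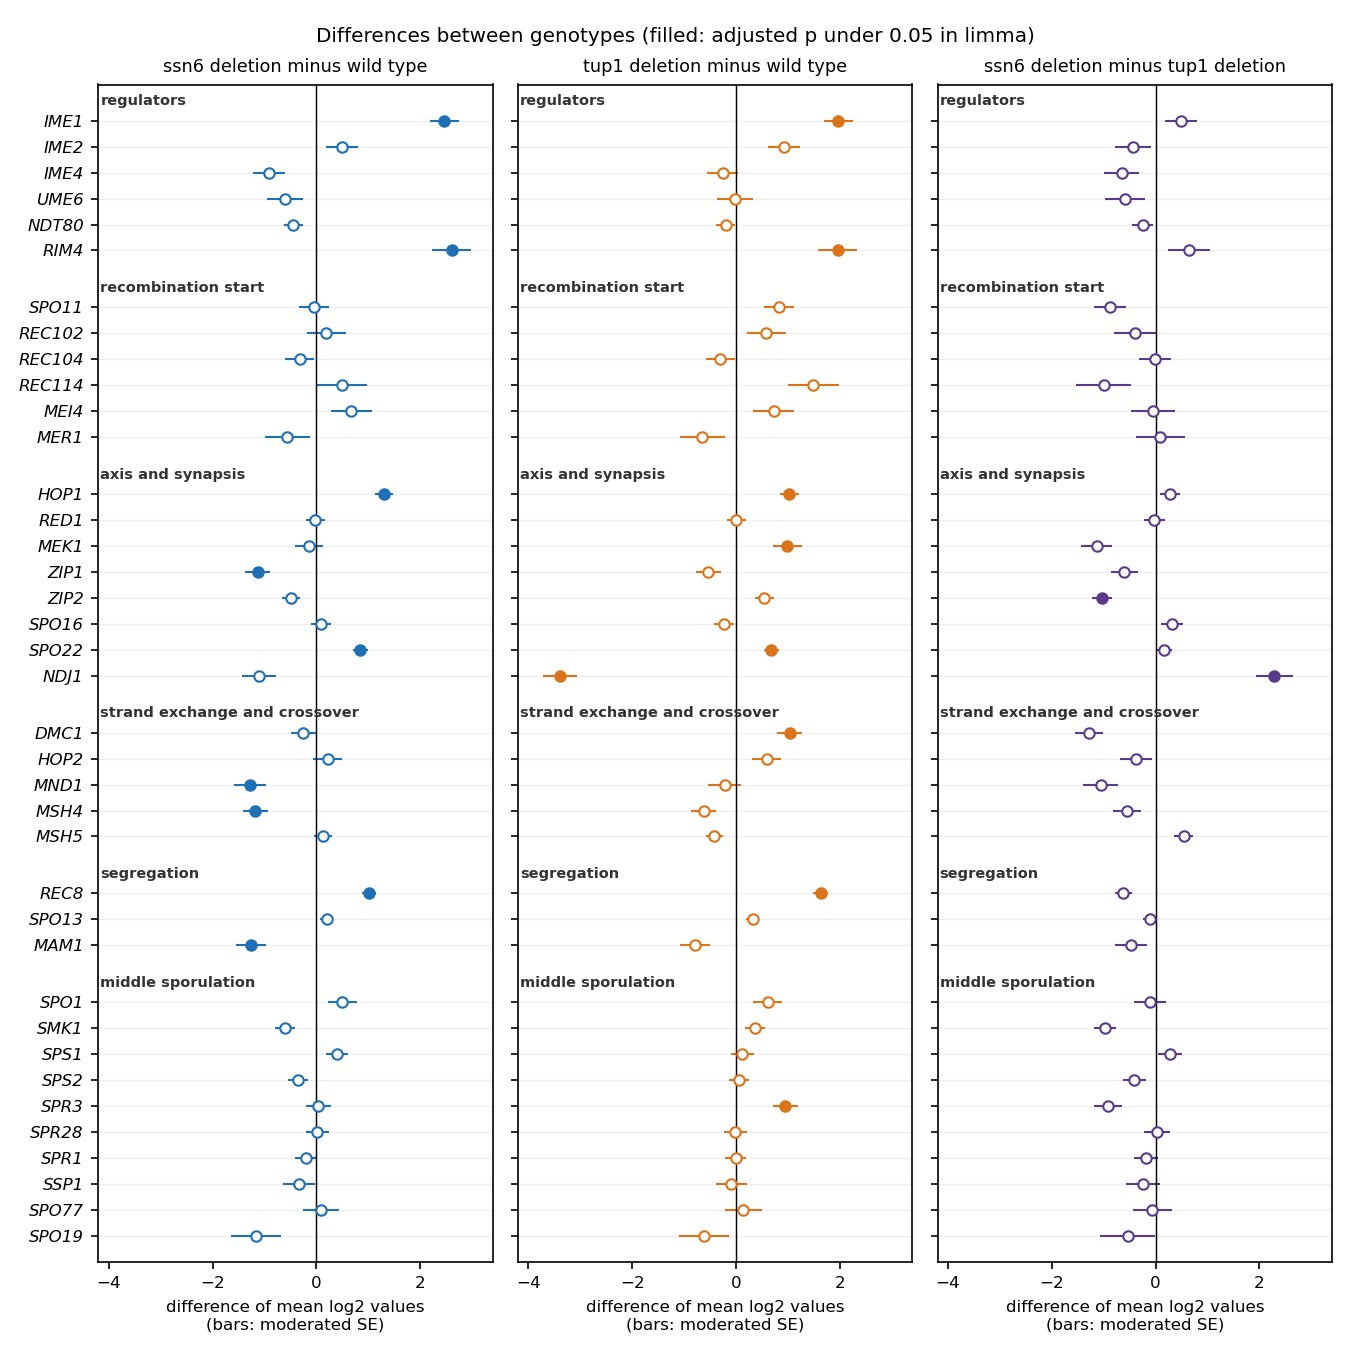
Difference of mean log2 values, with bars of 1 moderated SE, for each of the 38 genes in the 3 comparisons, by role, with filled points for an adjusted p under 0.05. IME1 and RIM4 lie furthest to the right in both comparisons with wild type, and NDJ1 lies furthest to the left without Tup1 at a fitted -3.39, where its level was under the floor, as that of HOP2 was on all arrays.

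Set directly against each other, the deletions differed in 2 of the 38 genes. NDJ1 was higher and ZIP2 lower in the ssn6 deletion, and 36 were not called, where 1.91% of all genes were higher, 0.496% lower and 2.40% called in all. Quantile normalization called 1 higher and 2 lower, and 2.73% of all genes. The median difference of the 38 genes was -0.31, beside -0.07 for all genes. The ssn6 arrays lay wholly below the tup1 arrays for 18 genes (47.4%) and wholly above for 6 (15.8%), where all genes gave 39.2% and 24.4%.

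NDJ1 was at least 2.17-fold higher without Ssn6 than without Tup1, with means of 6.66 and 4.38 (adjusted p = 0.0262), a bound since the tup1 level was under the floor. The call was lost without ssn6 replicate 1 (adjusted p = 0.2) or 2 (adjusted p = 0.204) and without tup1 replicate 1 (adjusted p = 0.194) or 2 (adjusted p = 0.0629). ZIP2 (YGL249W), which with Spo22 starts synapsis, had wild-type log2 levels of 7.33, 7.77 and 7.32, beside 7.07 and 6.92 without Ssn6 and 8.07 and 7.98 without Tup1. The ssn6 arrays lay below wild type and the tup1 arrays above it. Neither deletion's own difference from wild type passed the threshold, at -0.48 ± 0.18 (adjusted p = 0.0961) and 0.55 ± 0.18 (adjusted p = 0.0625), and the difference between the deletions did, at -1.03 ± 0.19 (adjusted p = 0.0461). That call was lost without wild-type replicate 1 (adjusted p = 0.0725) or 3 (adjusted p = 0.0569), ssn6 replicate 1 (adjusted p = 0.262) or 2 (adjusted p = 0.394) and tup1 replicate 1 (adjusted p = 0.239) or 2 (adjusted p = 0.0771).

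The genes called in one deletion alone were otherwise not shown to differ between the deletions. DMC1 differed by -1.28 ± 0.27 (adjusted p = 0.062), MEK1 by -1.14 ± 0.30 (adjusted p = 0.103) and SPR3 by -0.91 ± 0.26 (adjusted p = 0.132), each with lower levels without Ssn6. Of the genes that fell without Ssn6, ZIP1 differed by -0.60 ± 0.26 (adjusted p = 0.271) and MSH4 by -0.55 ± 0.26 (adjusted p = 0.312). MND1 differed by -1.06 ± 0.34 (adjusted p = 0.162) and MAM1 by -0.47 ± 0.31 (adjusted p = 0.439). The DMC1 difference was called without wild-type replicate 2 (adjusted p = 0.0173) or 3 (adjusted p = 0.0435). REC8, called in both, differed by -0.62 ± 0.16 (adjusted p = 0.0942), IME1 by 0.49 ± 0.31 (adjusted p = 0.418), RIM4 by 0.65 ± 0.41 (adjusted p = 0.423) and HOP1 by 0.27 ± 0.20 (adjusted p = 0.471). The median SE of this comparison was 0.30 for the 38 genes, beside 0.20 for all genes.

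**Figure D4:**
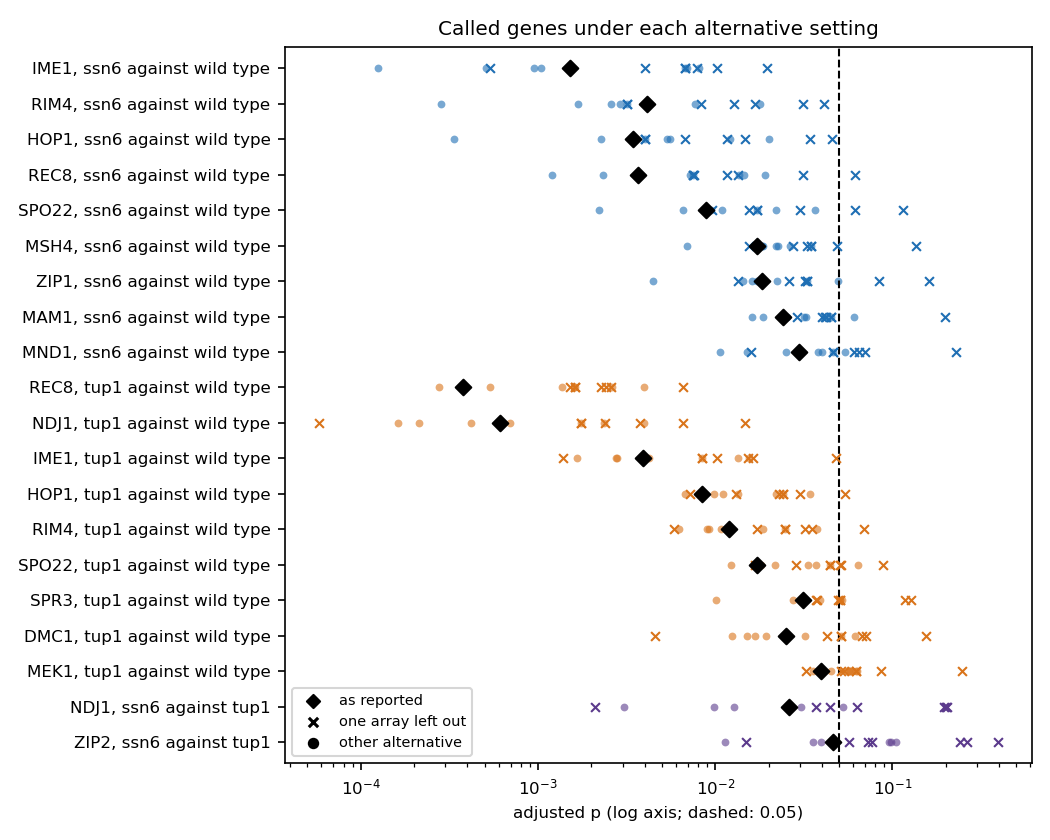
Adjusted p (log axis, dashed line at 0.05) of each call as reported (diamond), with 1 array left out (cross) and under the other alternatives (dot), in blue for ssn6 and orange for tup1 against wild type and purple for ssn6 against tup1. All points of IME1 in both deletions, of RIM4 and HOP1 without Ssn6 and of REC8 and NDJ1 without Tup1 lie left of the line.

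Among the 22 regulators that act upstream of IME1 or on early and middle promoters, 3 rose and 3 fell without Ssn6 (median 0.09), and 4 rose and none fell without Tup1 (median 0.03). That is 27.3% and 18.2% called, near the 19.4% and 23.0% of all genes. Median centring gave 4 rises and 2 falls without Ssn6, where it called 17.9% of all genes. RME1, the haploid repressor of IME1, had wild-type log2 levels of 11.47, 10.73 and 11.78, beside 12.43 and 12.48 without Ssn6 and 12.76 and 12.38 without Tup1. It rose together with IME1, by 1.13 ± 0.30 (adjusted p = 0.0395) and 1.24 ± 0.30 (adjusted p = 0.0263). RIM8, of the Rim pathway that signals ambient pH, rose by 0.98 ± 0.14 (adjusted p = 0.00385) and 1.21 ± 0.14 (adjusted p = 0.00142). YHP1, a homeobox repressor, rose by 0.95 ± 0.18 without Ssn6 (adjusted p = 0.0142) and was the 1 regulator that differed between the deletions, by 1.42 ± 0.20 (adjusted p = 0.019). RFM1, which ties the deacetylase Hst1 to Sum1, fell by 0.91 ± 0.24 without Ssn6 (adjusted p = 0.0401). RIM11, a kinase that acts on Ime1 and Ume6, and MUM2, a partner of Ime4, rose by 0.65 ± 0.16 (adjusted p = 0.0271) and 0.53 ± 0.14 (adjusted p = 0.0385) without Tup1. SUM1 itself, named after its values were seen, differed by 0.05 ± 0.22 and 0.09 ± 0.22 (adjusted p = 0.898 and 0.787). Leaving out single arrays moved these counts of calls between 0 and 8 without Ssn6 (lowest without ssn6 replicate 2, and 1 without ssn6 replicate 1) and between 1 and 6 without Tup1 (1 without either ssn6 array or tup1 replicate 1, and 2 without wild-type replicate 1 or tup1 replicate 2). Between the deletions 0 were called without any 1 of the 4 deletion arrays, 4 without wild-type replicate 2 and 2 without wild-type replicate 3.

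Of 20 measured further genes of early meiosis, some of which also act in growing cells, 3 rose without Ssn6 and 4 without Tup1, and none fell. MEI5, SAE3 and GMC2 were under the floor on all 7 arrays, so a fall of these could not be seen. The shares called, 15% and 20%, lay below the 19.4% and 23.0% of all genes called in either direction, and all genes rose in 9.18% and 10.4%. CSM4, the partner of Ndj1 in moving chromosomes by their ends, had wild-type log2 levels of 6.15, 6.44 and 6.31, beside 8.43 and 8.21 without Ssn6 and 9.50 and 8.74 without Tup1. All deletion arrays lay above wild type, so CSM4 went the opposite way to NDJ1 without Tup1. CSM4 rose by 2.02 ± 0.23 (4.07-fold, adjusted p = 0.00155) and 2.83 ± 0.23 (7.09-fold, adjusted p = 0.000318). PCH2, an ATPase that removes Hop1 from chromosomes, rose by 1.21 ± 0.23 (adjusted p = 0.0131) and 1.80 ± 0.23 (adjusted p = 0.00234). RAD54, which also acts in DNA repair of growing cells, rose by 1.31 ± 0.18 (adjusted p = 0.00327) and 0.62 ± 0.18 (adjusted p = 0.0459), and HFM1, the crossover helicase also named MER3, rose by 0.70 ± 0.18 without Tup1 (adjusted p = 0.0337). The count without Ssn6 was 5 without wild-type replicate 2, and that without Tup1 was 2 without wild-type replicate 1, either ssn6 array or tup1 replicate 1.

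The 42 further genes of middle and late sporulation include some that also act in growing cells, such as the cyclin gene CLB1. Of the 42 genes, 14 rose without Ssn6 (median 0.39) and 19 rose without Tup1 (median 0.59), and none fell in either. CLB1 was among those that rose in both deletions. Rises made up 33.3% and 45.2% of the list, beside 9.18% and 10.4% of all genes. DIT1 and DIT2, neighbouring genes of dityrosine synthesis for the spore wall, rose most. The log2 level of DIT1 was 7.52, 7.13 and 7.65 in wild type, 13.18 and 13.31 without Ssn6 and 13.23 and 13.07 without Tup1, a rise of 5.81 ± 0.18 (adjusted p = 3.31e-06) and 5.71 ± 0.18 (adjusted p = 4.99e-06). DIT2 rose by 5.51 ± 0.20 (adjusted p = 6.27e-06) and 5.61 ± 0.20 (adjusted p = 7.1e-06). SPS100, a spore wall protein, rose by 3.45 ± 0.22 (adjusted p = 7.33e-05) and 3.60 ± 0.22 (adjusted p = 8.5e-05), and SPO20, a fusion protein of the spore membrane, by 3.32 ± 0.24 (adjusted p = 0.000126) and 2.98 ± 0.24 (adjusted p = 0.000296). None of the 42 was called between the deletions by limma, beside 2.40% of all genes, which does not show that their levels were equal. The tup1 count was 12 without either ssn6 array and 11 without tup1 replicate 1.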

How the data were processed

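The table deposited by the authors holds 1 log2 expression value per probe set and array. The software named per the submitters' processing notes is RMA and limma, with no role or version, and the background and summary settings are not given in the sources used here. Such log2 values compress differences of dim genes and carry no detection call, for which the floor from fission yeast probe sets stands in. An RMA table is usually quantile normalized, on the assumption that most genes do not change. Whether this was done here is not stated.

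Of 10928 probe sets, 5498 had 1 budding yeast gene, 1746 belonged to fission yeast, 1 had several genes and 3683 were unnamed. Where 1 of the 5449 genes had several probe sets (47 genes) the brightest on average was taken, and each of the 38 genes described had 1. Names came from the platform annotation and, with the gene order, from a RefSeq table of assembly R64, used without coordinates. limma 3.58.1 (R 4.3.3, lmFit and eBayes) fitted genotype means over the 7 arrays together, with 4 residual and 3.19 prior degrees of freedom, two-sided tests and Benjamini-Hochberg adjustment over all 5449 genes at 0.05. The small number of arrays limits the precision. Where all arrays of a group lay under the floor, the level is a bound, set on each array at the higher of the floor and the gene's own value. The fit was tested on simulated data. The labels name no batch.

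The genes, the other gene lists, the tests and the naming rule were chosen with earlier results of these data known. By that rule, genes called in any comparison and IME1, IME2, UME6 and NDT80 get their values on every array, and up to 4 called genes with the largest difference are named from each further list and comparison. Neighbouring genes and SUM1 were added after their values were seen. The neighbours of IME1 (FIP1 and RPL43B) and of RIM4 (SNF6 and NPR3) were not called in either deletion. Not all neighbours are named, and some others were called. SET4, next to IME2, rose by 4.40 ± 0.17 (adjusted p = 8.67e-06) and 3.24 ± 0.17 (adjusted p = 4.31e-05). HEF3, next to SPO1, rose in both deletions, and ACA1, next to MEI4, rose without Ssn6. EPT1, next to NDT80, fell by 0.99 ± 0.23 (adjusted p = 0.0248) and 1.01 ± 0.23 (adjusted p = 0.0208). The alternatives tried were quantile normalization, median centring, a filter at the floor, trended and robust eBayes, only the genotypes compared, array weights, a replicate block, the mean of probe sets, a threshold of 0.01 and the omission of each array in turn. A crossed block was added after the data were seen. Python 3.11.15 with matplotlib 3.10.9 drew the figures.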

Additional observations from a re-analysis of the deposited data

Results flagged for a closer look

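Of the 38 genes, 2 differed between the deletions in the test of the difference itself. The change of NDJ1 in the ssn6 deletion minus that in the tup1 deletion was 2.28 ± 0.35 on the log2 scale as fitted (adjusted p = 0.0262, limma). Both tup1 arrays were under the background floor, so the fitted value is not a measured size, and the bound is a level at least 2.17-fold higher without Ssn6. The same quantity for ZIP2 was -1.03 ± 0.19 (adjusted p = 0.0461, limma), with both ssn6 arrays below both tup1 arrays.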

How the results depend on the processing

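All genes called in a comparison kept their direction in all 16 alternatives, and no result changed sign among called ones. Of the 38 genes, 9 called without Ssn6, 9 without Tup1 and 2 between the deletions became 5, 4 and 0 at an adjusted p of 0.01. The shares of all genes called went from 19.4%, 23.0% and 2.40% to 7.29%, 8.37% and 0.459%. Trended and robust eBayes left 1 between the deletions, and called 2.28% of all genes there. The share of all genes called also moved when single arrays were left out. Leaving out single arrays gave 4 to 10, 3 to 10 (lowest without tup1 replicate 1) and 0 to 3. The labels do not say whether replicate numbers pair the arrays, and the values could not settle it. Deviations from group means of same-numbered arrays correlated at -0.361 and -0.268 for wild type with ssn6. They did so at 0.285 and 0.180 for wild type with tup1 and at -0.268 between the deletions. With 2 arrays per deletion the deviations mirror each other, so exchanging the numbers of a deletion reverses the sign. Number 3 occurs only in wild type, so a replicate block takes wild-type replicate 3 out of every difference. The median differences of all genes from wild type under the blocks, -0.1507 and -0.0813, were those of the fit without that array. The replicate block ended the calls of MAM1 without Ssn6, of MEK1, DMC1 and SPR3 without Tup1 and of NDJ1 and ZIP2 between the deletions. It brought those of SMK1 without Ssn6 and REC114 without Tup1, as did leaving out wild-type replicate 3. The replicate block called 9, 7 and 0 of the 38 genes, 11 of the late list without Tup1 (19 otherwise) and 2 regulators without Tup1 (4 otherwise). Of all genes it called 13.0%, 15.4% and 1.06%. The crossed replicate block, with ssn6 numbers exchanged, called 11, 12 and 3 of the 38 genes, and between the deletions 2 late genes and 2 regulators. Of all genes it called 22.0%, 23.8% and 3.17%.

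For the regulators, 6 calls without Ssn6, 4 without Tup1 and 1 between the deletions became 1, 1 and 0 at an adjusted p of 0.01, and 0 to 8, 1 to 6 and 0 to 4 with single arrays left out. Fitting only the genotypes compared gave 1 without Tup1 and 3 between the deletions, and array weights gave 4 between the deletions. For the further early genes, 3, 4 and 0 calls became 2 to 5, 2 to 5 and 0 to 1 with single arrays left out. Array weights gave 6 without Ssn6 and 1 between the deletions, and both only the genotypes compared and an adjusted p of 0.01 gave 2 without Tup1. For the middle and late genes, 14, 19 and 0 calls became 10 to 17, 11 to 20 and 0 to 2. Only the genotypes compared gave 12 without Tup1 and 2 between the deletions, an adjusted p of 0.01 gave 11 without Tup1, quantile normalization gave 1 and array weights gave 2 between the deletions. Of all genes, fitting only the genotypes compared called 14.1% without Tup1 and 3.36% between the deletions. Array weights called 39.3% of all genes without Ssn6 and 7.56% between the deletions. Fewer samples, the loss of wild-type replicate 3 under the blocks and the stricter threshold are the alternatives' own construction. The cause of the other moves was not tested. Signal under the floor limits HOP2 (7 arrays), SPR28 and SPO77 (3 each), SPS2 and NDJ1 (2 each) and REC114, MEI4 and MND1 (1 each). Signal close above the floor limits MEK1, and 2 arrays per deletion limit all 38 genes.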
